A study of Oryza sativa with 39 samples.

Results

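Leaf RNA of 13 rice lines gave 181 ids with reads throughout the Xian/Indica (XI) lines and almost none in the Geng/Japonica (GJ) lines. FPKM here is fragments on an id, scaled by its length and by a factor for each library. An id was a member if its FPKM was at least 1 in each of the 21 libraries of 7 XI lines. Its FPKM also had to be at most 0.3 in each of the 18 libraries of 6 GJ lines. The members were thus chosen by their measured FPKM out of 109715 ids, so the gap between XI and GJ levels is a description and carries no test. Of the 10227 ids that were at least 1 in every XI library, 1.77% met the GJ limit. The opposite pattern (at least 1 in every GJ library and at most 0.3 in every XI library) was met by 425 of 10800 ids.

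The leaves came from glasshouse plants at the tillering stage, 5 weeks after transplanting, with 3 libraries per line and a pool of 5 plants behind each library. Among the XI lines, T1C-19 carried a synthesized cry1C gene under the maize ubiquitin promoter and HH1 a fused cry1Ab/Ac gene under the rice actin1 promoter, both brought into MH63 by Agrobacterium. XIY63, XXY63, SY63 and JY63 were conventional crosses of MH63 with Xieqingzao A, Xinxiang A, Zhenshan 97A and Jin 23A, and MH63 is the restorer line that all 6 share as a parent. Among the GJ lines, KMD1 and KMD2 each arose from XS11 in a transformation of its own, are homozygous and express a synthetic cry1Ab from a maize ubiquitin promoter. CJ03, JH1 and T202 were conventional crosses with XS11, and XS11 was the parent. Each GE line comes from its own transformation event, so the transgene and the event cannot be told apart, and the other parents of the crosses were not analysed here.

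Xian and Geng rice are the main subspecies of Asian cultivated rice, and their genomes differ in sequence and in which genes they hold. IRGSP-1.0, the genome to which the authors aligned all libraries, is that of Nipponbare, a GJ cultivar. An id of these files is therefore a stretch of a GJ genome, and a read from an XI plant is counted only where it aligns to that stretch. A value near 0 therefore need not mean that the leaves hold no such RNA, since RNA that differs too much does not align, and FPKM cannot tell these apart. Among the members the values near 0 were those of GJ lines, the subspecies of the reference, and in the opposite set those of XI lines. What lies behind either was not tested.

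Between 3989871 and 8318607 reads per library lay on ids, and their number was recovered from the whole-number steps of the deposited FPKM. These numbers are far below the clean reads that the study gives per library. The reason was not found, so read numbers, floors and shares of reads could be off by a common factor. In bulk leaf, fewer cells of a type and less RNA per cell cannot be told apart. The label leaf was checked on 4 loci taken from general knowledge as leaf markers, which the files do not name: none exceeded 1.39 FPKM in any library and 1 of them was at 0 in all 39. The 2 loci taken as endosperm markers reached 3 FPKM and 0.836 FPKM and the root locus was at 0 in all libraries, so these loci did not show the tissue, and why was not tested. No marker locus was a member.

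The members fell into 3 classes by the form of their ids. Predicted ids (a prefix that marks a new transcript and a running number, which the files do not describe and which is given here as predicted id and that number) were 148 of the 181 members, reference loci (ids that hold a chromosome and a locus number) were 26 and Ensembl Plants ids were 7. Predicted ids made up 81.8% of the members but 33.0% of the 10227 ids that were at least 1 in every XI library. The files do not say how, or from which libraries, predicted ids were made, and the part of this in their share was not tested. Within each class, 4.39% of such predicted ids, 0.393% of reference loci and 3.00% of Ensembl ids were members. In the opposite direction, the 425 ids with the GJ pattern held 236 predicted ids and 175 reference loci, or 55.5% and 41.2%. Reference loci therefore took 14.4% of the members and 41.2% of the opposite set. No product, name or function is paired with any member id in the sources used here, so the members are given by id and no functional class is reported.

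The members drew 463279 reads in the 21 XI libraries and 488 reads in the 18 GJ libraries. In XI libraries the summed reads on the members ranged between 16463 and 34168 (0.339% to 0.448% of the library), and in GJ libraries between 14 and 43. Every XI library read all 181 members, whereas a GJ library read a median of 13 members (range 7 to 25). The summed level, in RPM (reads for each 1000000 reads of the library), was 4274 ± 217 in T1C-19, 4410 ± 62.9 in HH1, 4116 ± 143 in XIY63, 3564 ± 131 in XXY63, 3457 ± 70.1 in SY63, 3551 ± 53.3 in JY63 and 3886 ± 211 in MH63 (SD, n = 3 each). In the GJ lines it lay between 3.51 ± 0.784 RPM in T202 and 5.94 ± 0.316 in XS11 (SD, n = 3 each). Among XI lines the sum thus lay between 3457 RPM in SY63 and 4410 RPM in HH1, with JY63 and XXY63 close to SY63.

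**Figure D1:**
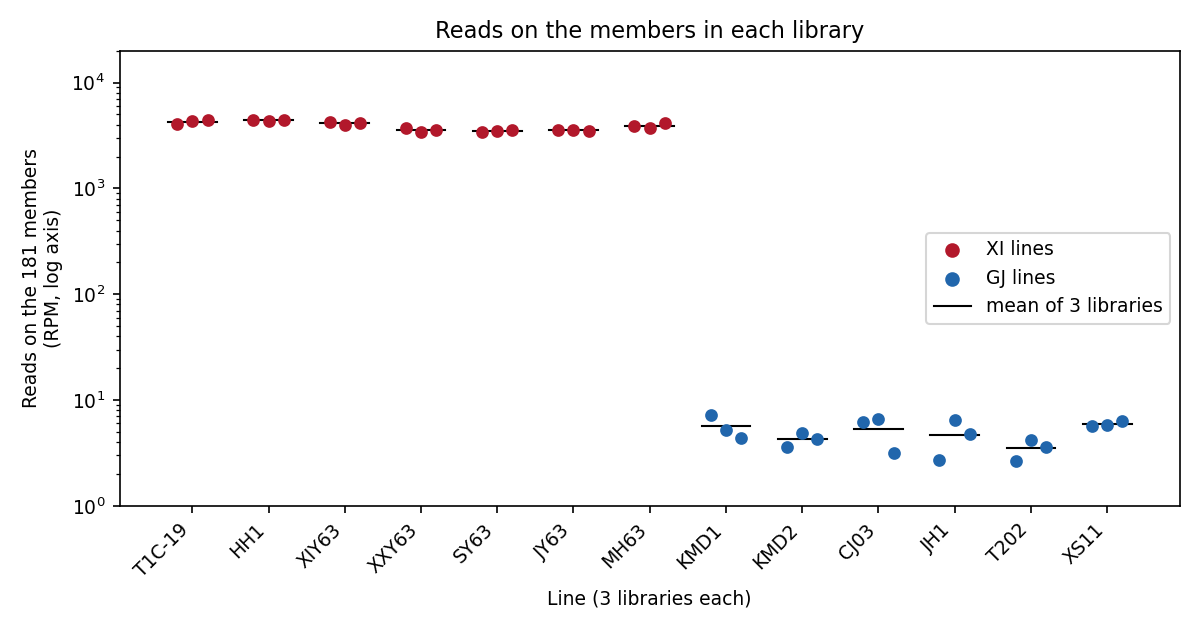
Reads on the 181 members in each library, in RPM (log axis), for the 13 lines with XI lines on the left. Points are libraries and black lines are means of 3 libraries. XI libraries lie between 3388 and 4479 RPM and GJ libraries between 2.67 and 7.27.

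In the GJ libraries, 103 of the 181 members had no read at all, 51 had 1 to 3 reads over all 18 libraries and 27 had more than 3. The limit of 0.3 FPKM meant different numbers of reads for long and short ids. For 49 members, none longer than 721 bases, a single read would have broken the limit in at least 1 GJ library, and 6 of these 49 still had a read in a GJ library where 1 read was allowed. For the other 132, all of at least 729 bases, every GJ library allowed 1 read or more. The most GJ reads on a member were 84, on predicted id 20620 (5783 bases). Against 3 reads over all GJ libraries together, the floor used for a count of 0, the 103 members without GJ reads were at least 25.6-fold (EPlOSAG00000020512) to at least 2185-fold (predicted id 14186) higher in the XI libraries. For the 27 members with more than 3 GJ reads, the pooled XI level was 25.8 to 3082 times the pooled GJ level. Floors and ratios of this kind cover counting error only.

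On the XI side 50 members had fewer than 10 reads in at least 1 XI library and 11 had fewer than 3, and over the members the median of the lowest read number in an XI library was 18. Members just inside the XI threshold were predicted id 23575, predicted id 25256 and predicted id 3259, with lowest XI values of 1.005, 1.01 and 1.01 FPKM, and just outside it lay predicted id 45593, predicted id 23576 and predicted id 31582 at 0.986, 0.985 and 0.984 FPKM. At the GJ limit, predicted id 17180, OS06G0526400 and predicted id 16826 were inside at 0.2995, 0.299 and 0.297 FPKM, and predicted id 7682, predicted id 45291 and predicted id 16623 outside at 0.307, 0.308 and 0.313 FPKM. One of those just outside, predicted id 45291, had a median XI level of 66.3 FPKM.

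The levels of the members in XI leaves were mostly low. Their median FPKM over the 21 libraries had quartiles of 4.08, 6.80 and 11.96, against 5.26, 12.7 and 43.1 for all ids that were at least 1 in every XI library. Above 10 FPKM lay 55 members and above 50 FPKM lay 7. The gap differed by class of id. Predicted members had a median of 6.47 FPKM, against 6.74 FPKM for all predicted ids at least 1, whereas the 26 reference loci had a median of 5.002 FPKM, against 20.4 FPKM for all such reference loci. The 7 Ensembl members had a median of 15.1 FPKM, against 22.7 FPKM for their class. Members were also shorter, with a median length of 1266 bases for predicted members against 2382 bases for their class and of 1032 bases for reference loci against 1399 bases. The shortest member had 57 bases (EPlOSAG00000021490) and the longest 26129 bases (predicted id 14186).

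**Figure D2:**
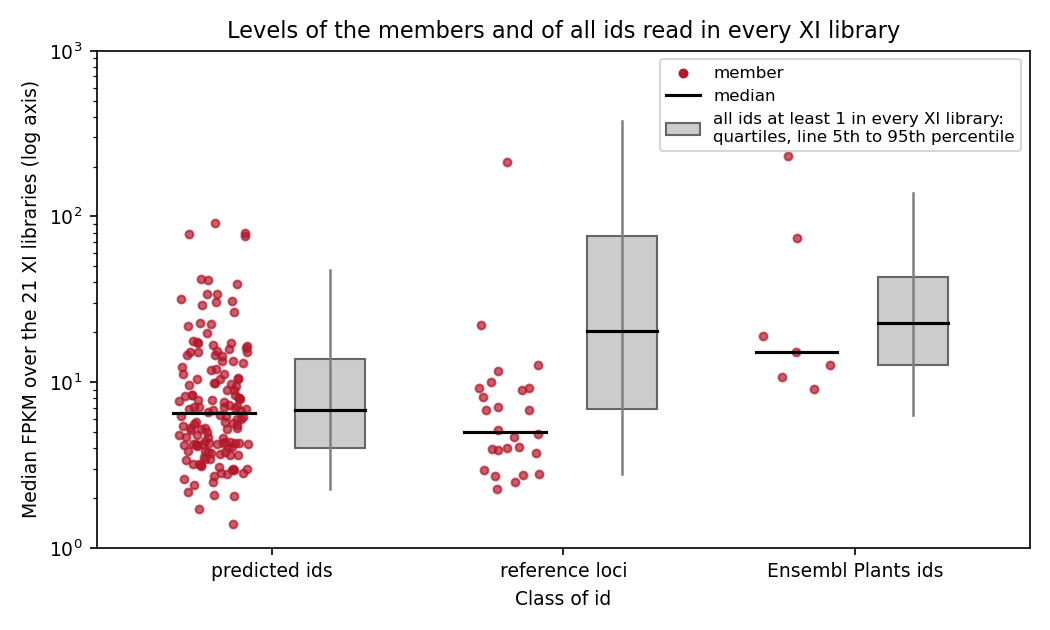
Median FPKM over the 21 XI libraries (log axis) by class of id. Red points are members and black lines medians, and grey boxes give the quartiles of all ids at least 1 in every XI library, with lines between the 5th and the 95th percentile; predicted members overlap their class (medians 6.47 and 6.74 FPKM), while reference members lie low in theirs (5.002 and 20.4 FPKM).

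The reference locus with the highest level was OS04G0565750 (chromosome 4, 734 bases). Its FPKM was 167, 171 and 144 in T1C-19, 327, 308 and 299 in HH1, 154, 190 and 155 in XIY63, 218, 192 and 195 in XXY63, 278, 264 and 212 in SY63, 240, 256 and 221 in JY63, and 169, 219 and 198 in MH63. HH1 stood above every other line, and T1C-19 and XIY63 were lowest. In the 18 GJ libraries the locus had 1 read, against 19575 reads in the XI libraries. The next reference loci were far lower, OS04G0247700 with a median of 22.2 FPKM, OS11G0211700 with 12.6 FPKM and OS02G0778801 with 11.6 FPKM, and the lowest, OS09G0326100, had 2.25 FPKM.

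Predicted ids made up most of the other members at the top. Predicted id 7338 (1726 bases) had a lowest, median and highest XI value of 45.7, 91.1 and 120 FPKM, with its lowest line mean in XXY63 (48.7 FPKM) and its highest in XIY63 (112 FPKM). For predicted id 42652 (3870 bases) these were 50.8, 79.9 and 159 FPKM, and HH1 (142 FPKM) stood above T1C-19 (55.5 FPKM), the lowest line. Both had reads in GJ libraries, 11 and 3 in all. Among the other predicted ids, predicted id 24905 had a median of 77.8 FPKM and predicted id 46018 of 76.1 FPKM, each with its highest line mean in HH1. Below them came predicted id 31542 at 41.9 FPKM, predicted id 23470 at 41.4 FPKM and predicted id 13846 at 38.95 FPKM.

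The 2 highest Ensembl ids rest on far fewer reads than these levels seem to imply, because an id of under 100 bases gains many FPKM per read. EPlOSAG00000014457 (84 bases) had the highest median of all members, 232 FPKM, on 19 to 198 reads per XI library. Its 3 values were 55.3, 56.7 and 78.5 FPKM in HH1, against 270, 297 and 260 FPKM in MH63, and the HH1 libraries did not overlap those of MH63. EPlOSAG00000021490 (57 bases) had a median of 74.0 FPKM on 5 to 62 reads per library. The other 5 Ensembl members had between 1 and 6 reads in their lowest XI library.

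Within the XI lines the members varied somewhat more than all ids at least 1 in every XI library. Those ids were not matched to the members by class of id or by level, and the part of either was not tested. The ratio of the highest to the lowest of the 7 line means had quartiles of 1.97, 2.63 and 3.54 for the members, against 1.65, 2.13 and 3.06 for all ids at least 1 in every XI library. A ratio of at least 2 was found for 131 members (72.4%), against 55.6% of those ids. The median coefficient of variation between replicates of a line was also larger, 19.7% for the members and 16.5% for those ids. The highest line mean was in HH1 for 38.7% of the members (35.9% of those ids) and in T1C-19 for 19.3% (13.04%). The lowest line mean was in XXY63 for 16.6% of the members (7.39% of those ids), in SY63 for 15.5% (7.83%) and in JY63 for 10.5% (5.67%), but in HH1 for 16.6% (25.4%), in XIY63 for 18.2% (22.7%), in T1C-19 for 17.7% (21.9%) and in MH63 for 4.97% (9.05%).

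Predicted id 25256, the member that varied most, had 30.2, 25.2 and 27.0 FPKM in T1C-19, 14.2, 13.4 and 12.9 in HH1, 21.04, 23.5 and 19.8 in XIY63, 2.56, 2.58 and 4.67 in XXY63, 6.91, 9.57 and 6.72 in SY63, 1.30, 1.71 and 1.01 in JY63, and 3.66, 4.79 and 3.30 in MH63. T1C-19, XIY63 and HH1 were high in that order without overlap, and JY63 was lowest, 20.5-fold below T1C-19. Predicted id 39646 had 22.7, 22.7 and 17.2 FPKM in HH1 and 17.9, 15.5 and 11.02 in T1C-19, but 1.102, 1.23 and 2.24 in XIY63 and 1.70, 1.24 and 1.08 in XXY63, against 5.52, 14.03 and 7.60 in MH63. XIY63 and XXY63 overlapped each other and lay below all other lines. Predicted id 6703 was high in HH1 only, with 41.0, 34.4 and 43.7 FPKM, against 8.71, 16.1 and 10.2 FPKM in MH63, and its highest value in any of the other 5 lines was 9.35 FPKM, in T1C-19.

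At the other end, predicted id 41164 (3239 bases) had between 16.3 and 24.4 FPKM in all 21 libraries, with a median of 19.9 FPKM, and its line means differed 1.18-fold. It had no read in any GJ library. Predicted id 7354 and predicted id 30530 varied nearly as little, 1.19-fold and 1.23-fold between line means, at medians of 4.63 and 7.97 FPKM.

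**Figure D3:**
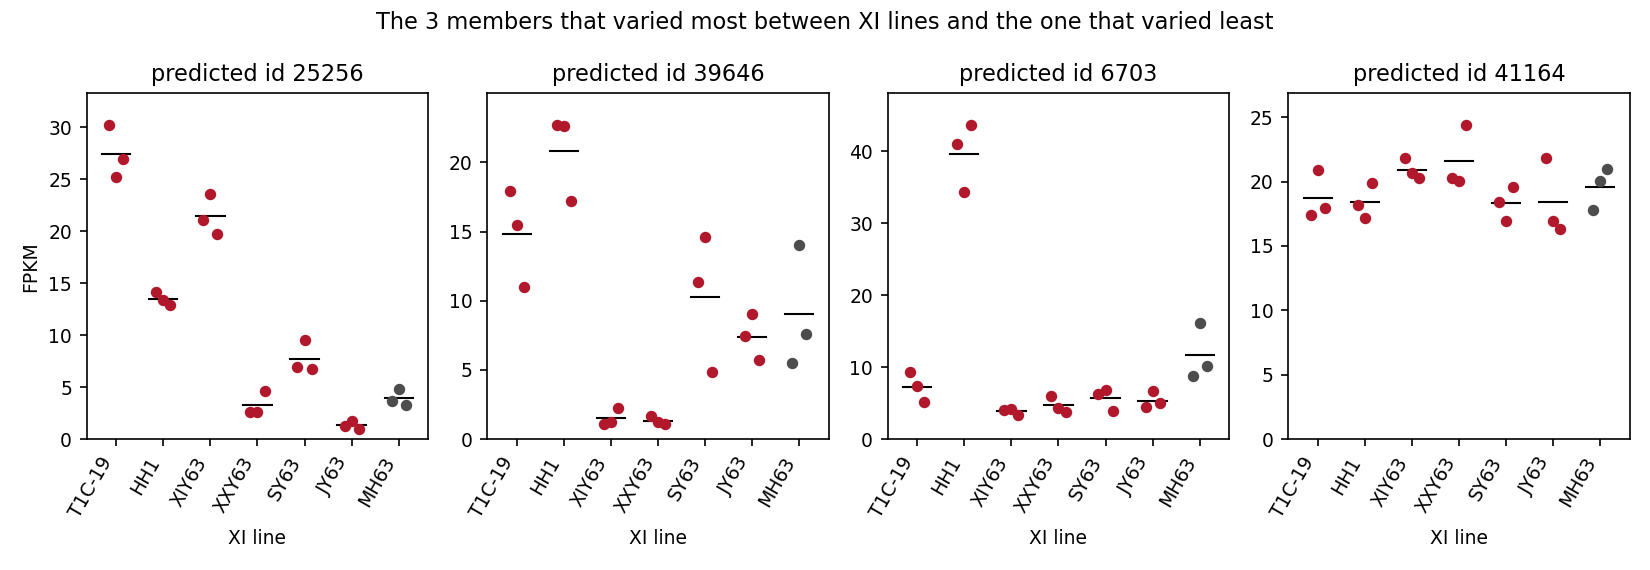
FPKM in each XI library of the 3 members that varied most between lines (predicted id 25256, predicted id 39646 and predicted id 6703) and of the one that varied least (predicted id 41164). Points are libraries, grey for MH63, and black lines are means of 3 libraries; line means differ 20.5-fold for predicted id 25256 and 1.18-fold for predicted id 41164.

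Each XI line was then compared with MH63, the parent they share, which is a contrast the choice of members did not use, although the choice required a level of at least 1 FPKM in every XI library and so kept out ids that a line had lost. The fit was limma on log2(FPKM + 1) over all ids that passed a filter on low values, which all 181 members passed because of that choice, and an id was called at a Benjamini-Hochberg adjusted p below 0.05 if it had also changed by a factor of 2 or more in either direction. The comparisons share their MH63 libraries. Nothing in the labels says whether the 3 pools of a line were grown apart, so the p-values measure the spread between these pools.

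In T1C-19 4 members were called higher and 0 lower by limma, where 1.8% and 0.388% of all tested ids were called. At an unadjusted limma p below 0.05, 21 members were higher and 28 lower in T1C-19, and 64 and 31 in HH1. In the crosses these were 16 and 42 in XIY63, 16 and 49 in XXY63, 19 and 41 in SY63 and 19 and 47 in JY63. At that threshold no share over all ids was taken, so these counts have no background. By the adjusted calls, 25 members were higher and 17 lower in HH1, where 7.41% and 10.2% of all ids were called. Among the crosses, XIY63 had 5 members higher and 14 lower (4.99% and 3.74% of all ids), XXY63 had 2 higher and 12 lower (2.99% and 1.14%), SY63 had 3 higher and 11 lower (4.98% and 3.28%), and JY63 had 3 higher and 16 lower (3.59% and 1.95%). Among the 10227 ids at least 1 in every XI library, 1.53% were called higher and 3.08% lower in XIY63, 0.9% and 0.968% in XXY63, 3.27% and 2.67% in SY63, 1.54% and 1.6% in JY63, 0.87% and 0.44% in T1C-19 and 8.34% and 10.1% in HH1. Calls of members leaned to lower in all 4 crosses, as did those of the 10227 ids in XIY63 (156 higher, 315 lower). In HH1 more members were called higher than lower (25 and 17). This held in every alternative fit except that with FPKM over plain read totals, where 18 were higher and 18 lower. Calls of the 10227 ids in HH1 leaned to lower (853 higher, 1030 lower). In T1C-19 the 4 calls were all higher, and with all 39 libraries in 1 model 5 were higher and 3 lower. These counts were not split by class of id. Several counts fell when 1 library was left out, as did the calls over all ids. Over all ids the calls fell from 1832 to 760 in XIY63 without its replicate 3. In XXY63 they fell from 855 to 222, 159 and 190 without its replicates 1, 2 and 3. Without replicate 1 of the line they fell from 1692 to 462 in SY63 and from 1143 to 113 in JY63. The falls in the member counts are thus not particular to the members. The 19 calls in XIY63 fell to 9 without its replicate 3. The 14 calls in XXY63 fell to 6, 2 and 6 without its replicates 1, 2 and 3 and to 9 and 5 without MH63 replicates 1 and 3. The 14 calls in SY63 fell to 6 and 8 without its replicates 1 and 3 and to 7 and 6 without MH63 replicates 1 and 3. The 19 calls in JY63 fell to 4 and 9 without its replicates 1 and 2 and to 10 and 9 without MH63 replicates 1 and 3. In all, 70 members were called in at least 1 line and 111 in none. The same count was not taken over all ids, so it shows nothing particular to the members.

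The ratios of mean FPKM showed where the members departed from other ids. In XXY63 the lower quartile of the log2 ratio to MH63 was -0.77 over the members, against -0.21 over all ids at least 1 in every XI library, while the medians were -0.11 and 0.01 and the upper quartiles 0.17 and 0.20. Taken for each XXY63 library alone, the lower quartile of the members was -0.82, -0.81 and -0.70. A log2 ratio between -1.5 and -0.5, a window chosen after the values were seen, held 61 members (33.7%) in XXY63, against 9.41% of those ids. Within the classes of id it was 33.1% of predicted members against 12.1% of all such predicted ids, and 38.5% of the 26 reference members against 7.48% of such reference loci. The same window held 27.6% of the members in JY63 (15.4% of those ids), 25.97% in SY63 (16.5%), 21.5% in XIY63 (14.4%), 14.4% in T1C-19 (11.9%) and 13.8% in HH1 (16.6%).

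In the other lines the classes of id differed. For the 26 reference members the window held more than for their class in all 5, with 26.9% against 10.8% in T1C-19, 23.1% against 11.7% in HH1, 30.8% against 14.5% in XIY63, 30.8% against 10.7% in SY63 and 23.1% against 10.2% in JY63. For predicted members it held 20.3% against 13.5% in XIY63 and 27.7% against 24.3% in JY63, but 24.3% against 26.4% in SY63, 10.8% against 12.9% in T1C-19 and 12.2% against 24.96% in HH1. The lower quartile was -0.57 over the members in SY63 and -0.61 in JY63, against -0.33 and -0.31 over all ids at least 1 in every XI library. Over predicted members it was -0.55 in SY63 and -0.61 in JY63, against -0.56 and -0.50 over all such predicted ids, and over reference members -0.56 and -0.49, against -0.18 and -0.19 over such reference loci. The 10th percentile in JY63 was -1.21 over the members and -0.85 over all such predicted ids. In T1C-19 the lower quartile was -0.32 over the members and -0.29 over all ids at least 1 (medians 0.01 and -0.02), and over reference members it was -0.52, against -0.28 over such reference loci. In HH1 the median was 0.23 over the members and 0.15 over all ids at least 1, but predicted members (0.19) stood above predicted ids in general (-0.16). Across all ids the log2 ratio in HH1 ran with length (Spearman's rho -0.15 over 181 members, -0.32 over 10227 ids), as did those of SY63 (-0.08 and -0.29), XIY63 (0.21 and 0.25), JY63 (-0.07 and -0.24) and T1C-19 (0.18 and 0.14), and the part of length in the members' ratios was not tested.

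**Figure D4:**
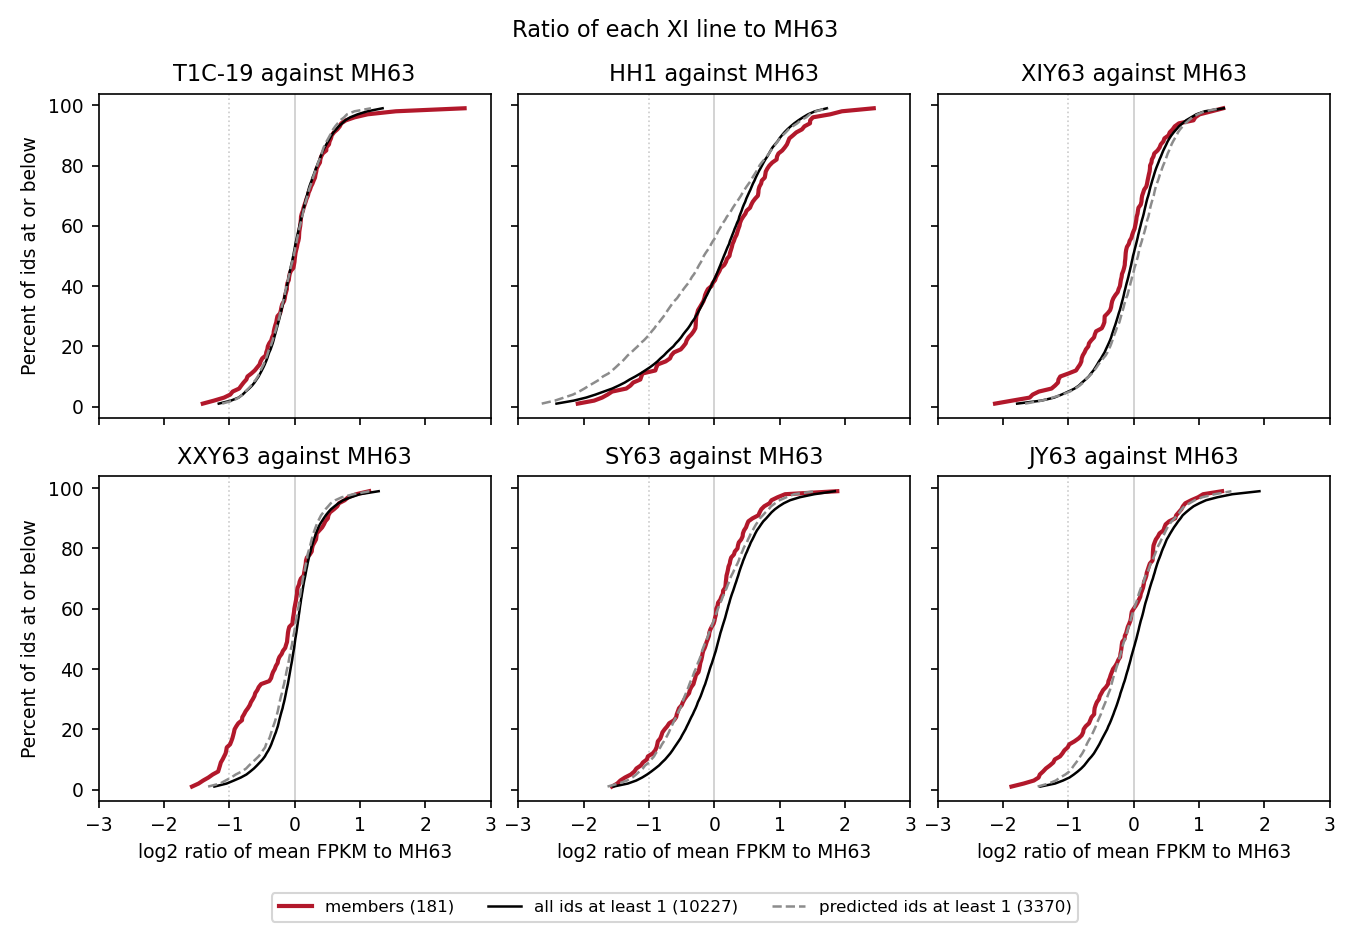
Percent of ids at or below each log2 ratio of mean FPKM to MH63, in 6 panels for the 6 lines compared with MH63. The red curve gives the 181 members, the black curve all 10227 ids at least 1 in every XI library and the dashed curve the 3370 predicted ids among them; in XXY63 the red curve leaves the others below 0 (lower quartile -0.77 against -0.21), while in T1C-19 they lie close together (-0.32 against -0.29).

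The counts of ids whose 3 libraries did not overlap the 3 of MH63 were also taken, with no limit on the fold change. Neither these counts nor their background were split by class of id, and the classes differed. Over all predicted ids at least 1 in every XI library the median log2 ratio was -0.11 in SY63 and -0.135 in JY63. Over such reference loci it was 0.14 and 0.11. The part of class in the excesses below was not tested. All 3 libraries lay below MH63 for 48 members in XXY63 (26.5%), where this held for 11.7% of all ids at least 1 in every XI library, for 41 in XIY63 (22.7%, background 16.7%), 46 in SY63 (25.4%, background 16.9%) and 49 in JY63 (27.1%, background 16.1%). In T1C-19 it held for 30 (16.6%, background 16%) and in HH1 for 35 (19.3%, background 24.1%). All 3 lay above MH63 for 21 members in T1C-19 (11.6%, background 14%), 64 in HH1 (35.4%, background 34.2%) and 22 in XIY63 (12.15%, background 18%). The same held for 15 in XXY63 (8.29%, background 10.9%), 21 in SY63 (11.6%, background 21%) and 25 in JY63 (13.8%, background 19.1%).

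In T1C-19 the largest calls were predicted id 25256, with a limma log2 fold change on the log2(FPKM + 1) scale of 2.54 ± 0.16 (SE, Benjamini-Hochberg adjusted p = 0.000127), and predicted id 10259 with 2.35 ± 0.37 (adjusted p = 0.0159). Predicted id 10259 (3682 bases) had 15.3 ± 1.99 FPKM in T1C-19 and 14.03 ± 1.58 in HH1, against 2.59 ± 2.23 in MH63 (SD, n = 3 each), and 1 library of MH63 (5.16 FPKM) was well above the other two. The call in T1C-19 held in 8 of 13 alternative fits (adjusted p up to 0.0982). Predicted id 14186, named after its values were seen, had 6.68, 7.65 and 8.60 FPKM in T1C-19, against 1.21, 1.12 and 1.11 FPKM in MH63, and at most 2.20 FPKM in any other XI library.

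In HH1 the largest increases were predicted id 23750, with 22.7, 23.4 and 21.9 FPKM in HH1 against 1.89, 2.52 and 5.56 FPKM in MH63, and predicted id 10259. The limma log2 fold changes were 2.54 ± 0.30 (SE, adjusted p = 0.000767 by Benjamini-Hochberg) and 2.23 ± 0.37 (adjusted p = 0.00283). The largest decreases were EPlOSAG00000014457, at -2.12 ± 0.17 (adjusted p = 0.000256), and predicted id 1640 (308 bases), at -2.00 ± 0.29 (adjusted p = 0.00163). Predicted id 1640 had 1.59, 1.63 and 3.06 FPKM in HH1 against 7.70, 12.8 and 13.6 FPKM in MH63. All 4 calls in HH1 held in 13 of 13 alternative fits.

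In XIY63 predicted id 39646 had the largest decrease (limma log2 fold change -1.93 ± 0.33 SE, Benjamini-Hochberg adjusted p = 0.00919) and predicted id 25256 the largest increase (2.20 ± 0.15, adjusted p = 0.00012). EPlOSAG00000020512 (62 bases) also fell, to 4.58 ± 3.00 FPKM in XIY63 against 18.4 ± 6.24 FPKM in MH63 (SD, n = 3 each), a call that held in 6 of 13 alternative fits and rests on few reads. Predicted id 47100 (4510 bases) rose to 20.9 ± 2.27 FPKM in XIY63, against 8.10 ± 3.79 FPKM in MH63 (SD, n = 3 each), with a call in 9 of 13 fits.

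In XXY63 the largest decreases were predicted id 39646 (-2.02 ± 0.30 SE, limma with Benjamini-Hochberg adjusted p = 0.0099) and OS05G0232632 (-1.32 ± 0.23, adjusted p = 0.0163). OS05G0232632 (chromosome 5, 445 bases) had 4.32, 6.32 and 8.75 FPKM in XXY63, against 16.8, 16.3 and 18.3 FPKM in MH63, and no read in any GJ library. The XXY63 and MH63 libraries did not overlap. The only increases were predicted id 13177 and predicted id 6579, at 44.5 ± 17.4 FPKM against 14.8 ± 2.88 FPKM and at 12.3 ± 3.00 FPKM against 4.01 ± 0.107 FPKM in XXY63 and MH63 (SD, n = 3 each). Of the 14 calls in XXY63, none held in all 13 alternative fits.

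Predicted id 45349 (4189 bases) was called lower in 4 lines, with the largest decrease in JY63 (limma log2 fold change -1.77 ± 0.17 SE, Benjamini-Hochberg adjusted p = 0.00155) and a large one in SY63 (-1.64 ± 0.26, adjusted p = 0.0101). It had 7.04, 7.92 and 7.55 FPKM in JY63, 9.19, 11.3 and 5.50 in SY63, 10.7, 13.5 and 13.9 in XXY63 and 9.56, 8.26 and 9.78 in HH1, but 36.5, 25.5 and 27.4 in T1C-19 and 26.3, 30.04 and 29.8 in XIY63, against 33.2, 28.9 and 22.9 FPKM in MH63. T1C-19 and XIY63 overlapped MH63, and the other 4 lines lay wholly below it. Predicted id 6046 (2469 bases) had a like order, with 3.99 ± 0.559 FPKM in SY63, 5.56 in JY63, 4.60 in HH1 and 7.54 in XXY63, but 20.01 in T1C-19 and 18.1 in XIY63, against 15.3 ± 0.3 FPKM in MH63 (SD for SY63 and MH63, n = 3 each, other values are means of 3).

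The remaining largest calls in SY63 were increases, predicted id 35734 at 30.8 ± 2.51 FPKM against 7.81 ± 6.35 FPKM in MH63 and predicted id 23750 at 15.2 ± 1.81 FPKM against 3.32 ± 1.96 FPKM (SD, n = 3 each). Of 13 alternative fits, 7 kept the call of predicted id 35734 (adjusted p by limma with Benjamini-Hochberg up to 0.0779), for which 1 MH63 library (15.1 FPKM) lay well above the other two (4.001 and 4.28 FPKM), and 13 kept that of predicted id 23750. In JY63 predicted id 13177 reached 52.3 ± 19.7 FPKM against 14.8 ± 2.88 FPKM in MH63, predicted id 39793 reached 10.9 ± 0.602 FPKM against 4.63 ± 1.95 FPKM, and EPlOSAG00000021490 fell to 38.9 ± 16.0 FPKM against 119.8 ± 9.21 FPKM (SD, n = 3 each). These 3 calls in JY63 held in 10, 4 and 9 of 13 alternative fits.

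The 26 reference members lay on all 12 chromosomes, 4 each on chromosomes 5 and 7, 3 each on chromosomes 4 and 6, 2 each on chromosomes 9 to 12 and 1 each on chromosomes 1, 2, 3 and 8. Chromosomes 1 to 3 together listed 2706 of the 6617 reference loci that were at least 1 in every XI library but 3 of the 26 members. By locus number, which follows the order along a chromosome, no member had another member as its direct neighbour, whether neighbours were taken among all 37830 listed loci or among those above 0 in at least 1 library. With up to 3 listed loci allowed between neighbours the count was also 0 of 26. Among the 6617 loci at least 1 in every XI library, 39.4% had a direct neighbour of their own set and 81.35% one with up to 3 listed loci between. In the opposite set of 175 loci it was 9.14% and 19.4%. A larger set has closer neighbours by its size alone. The counts of members are a description, as the loci are few.

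**Figure D5:**
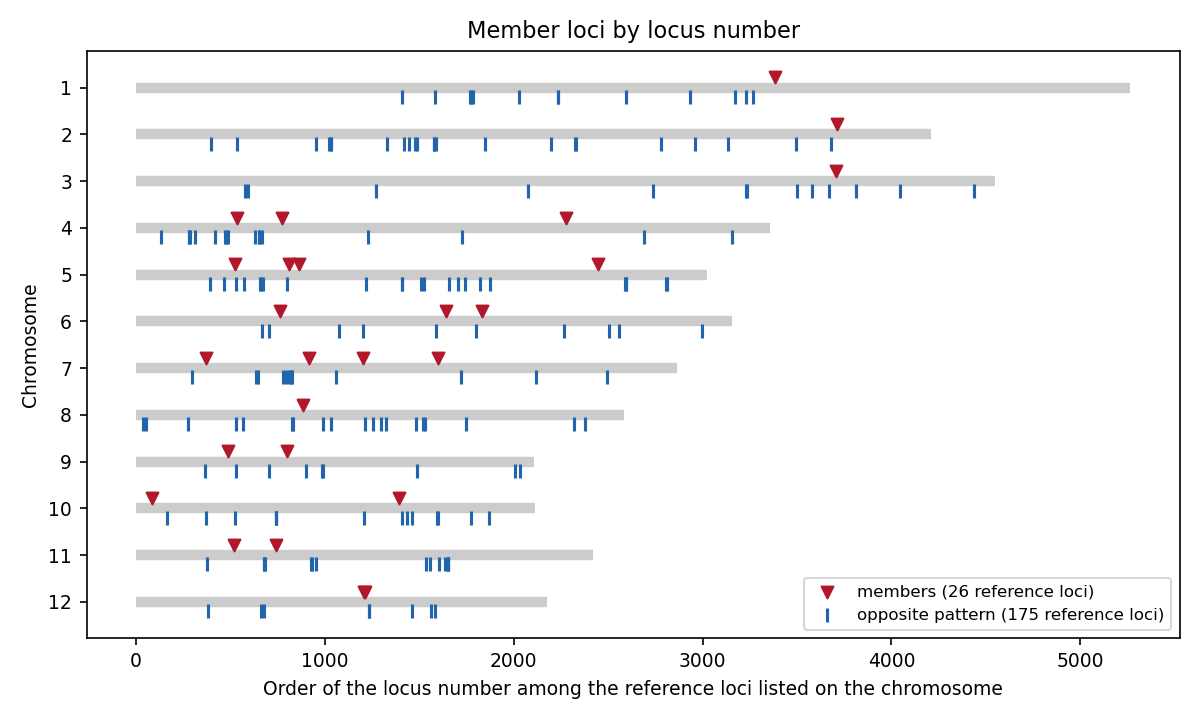
Order of each locus number among the reference loci listed on its chromosome, for the 12 chromosomes. Red triangles are the 26 member loci and blue ticks the 175 reference loci with the opposite pattern; the members lie on all 12 chromosomes, and the closest pair, on chromosome 12, is drawn as 1 triangle.

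The closest pair was OS12G0447466 and OS12G0450300 on chromosome 12, with 4 listed loci between them. OS12G0447466 had line means of 9.26 FPKM in T1C-19, 12.8 in HH1, 7.96 in XIY63, 6.34 in XXY63, 6.86 in SY63 and 6.62 in JY63, against 9.18 FPKM in MH63. OS12G0450300 had 6.36, 6.25, 1.76, 3.37, 3.31 and 3.78 FPKM in the same 6 lines, against 4.96 FPKM in MH63. The next pair, OS05G0216950 and OS05G0232632 on chromosome 5, had 56 listed loci between them, and all other neighbouring members on a chromosome at least 188.

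The last digits of the locus numbers differed too. Numbers that do not end in 00, which were given to loci added between existing ones, were found for 10 of the 26 member loci (38.5%), for 6.23% of the 6617 loci at least 1 in every XI library, for 18.3% of the opposite set and for 21.1% of all listed loci.

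Among the 148 predicted members, 4 had another member at the next running number (2.70%) and 11 had one within 5 numbers (7.43%). Over the 3370 predicted ids at least 1 in every XI library, 15.1% and 55.99% had another of their own set so placed. In the opposite set of 236 predicted ids it was 5.93% and 15.25%. A larger set has closer neighbours by its size alone, so these shares are a description. Whether running numbers follow position is not given in the sources used here. In the 2 pairs with consecutive numbers the line means lay in opposite order between XIY63 and MH63. Predicted id 26280 had a line mean of 3.95 FPKM in XIY63 against 11.9 FPKM in MH63, while predicted id 26281 had 15.5 FPKM in XIY63 against 6.12 FPKM in MH63. Predicted id 47100 had 20.9 FPKM in XIY63 against 8.10 FPKM in MH63, while predicted id 47101 had 3.09 FPKM against 4.68 FPKM, with overlapping libraries and no call.

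The number of ids with the pattern depended on XIY63 more than on any other line. Without XIY63 the rule gave 221 ids, against 183 without MH63, 189 without SY63, 189 without JY63, 190 without XXY63, 191 without T1C-19 and 199 without HH1. Without 1 of the GJ lines it gave between 184 (KMD1) and 197 (XS11). Of the 40 ids gained without XIY63, 18 were at most 0.3 FPKM in all 3 XIY63 libraries, 14 of them with no read there, whereas only 1 such id was found for T1C-19, 1 for HH1 and 0 for each of the other XI lines. The 18 were 16 predicted ids, OS06G0630850 and 1 Ensembl id, chosen after the values were seen.

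Predicted id 45156 (1553 bases) had 0, 0 and 0.217 FPKM in XIY63 but 6.79 to 57.1 FPKM in the other 18 XI libraries, with a median of 35.5 FPKM. Predicted id 45161 (5440 bases), 5 running numbers on, had 0, 0 and 0.0310 FPKM in XIY63 and 14.2 to 51.6 FPKM in the other XI libraries. OS06G0630850 (chromosome 6, 722 bases) had no read in XIY63 and 1.22 to 48.9 FPKM in the other XI libraries. In these 3 ids XIY63 lay with the GJ libraries, whose highest value was 0.236 FPKM. For T1C-19 the id was predicted id 9581 (0 reads, 1.74 to 9.07 FPKM in the other XI libraries) and for HH1 predicted id 2500 (0 reads, 1.38 to 7.41 FPKM).

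A few ids had the XI pattern and in addition 1 GJ line at 1 FPKM or more in all 3 libraries: 8 ids for T202, 5 for CJ03, 4 for KMD2, 3 for JH1 and 0 for KMD1 and XS11. Those named here were chosen after their values were seen. OS12G0505950 (chromosome 12, 500 bases) had 36.2, 40.3 and 57.6 FPKM in KMD2 and no read in the other 15 GJ libraries, and 17.5 to 76.8 FPKM in the XI libraries. Its 3 KMD2 values lay within the XI range. OS05G0527700 had 6.06, 7.93 and 8.33 FPKM in KMD2, predicted id 30545 had 4.46, 5.10 and 5.86 FPKM, and neither had a read in another GJ line. OS12G0426750 had 16.7, 18.1 and 21.5 FPKM in JH1 and at most 0.0694 FPKM in the other GJ lines. In T202, predicted id 6289 had 19.7, 5.17 and 6.79 FPKM and predicted id 6291 had 8.30, 4.63 and 4.38 FPKM, with no read in another GJ line. Predicted id 12158 had 22.8, 22.8 and 27.8 FPKM in CJ03, above the highest XI value of 17.3 FPKM, and at most 0.0800 FPKM in the other GJ lines.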

How the data were processed

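The deposited files hold FPKM values, 1 file per library for 39 libraries. Per the labels and the authors' methods, clean reads were aligned to IRGSP-1.0 with HISAT2 2.09 and counted per gene with featureCounts 1.5.0-p3, and DESeq2 was used for their own comparisons. Strand use in counting is not given in the sources used here.

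Each value above 0 (1036152 in all) was a whole number of reads within 0.01, and these reads were used for depth, floors and the variance trend. The deposited scaling did not follow reads on ids alone. A read on 1 kb gave 0.110 FPKM in MH63 replicate 3 (8318607 reads) and 0.214 FPKM in XS11 replicate 1 (5445545 reads). The alternative with plain read totals scales by reads on ids. Whether all read numbers are off by a common factor is not known. Lines were compared with MH63 from 6 libraries by limma (version 3.58.1, under R version 4.3.3) after the values were taken as log2(FPKM + 1), with ids at 0.5 FPKM or more in at least 3 libraries, a trend over mean log2 reads and Benjamini-Hochberg adjustment over all ids tested. In data simulated for XIY63 against MH63 only (20399 ids tested, 200 changed), the fit recovered 188 and called 199, 11 of them unchanged. The changed ids were drawn only from ids above a minimum read number, with changes well above a factor of 2 and a set spread between libraries. Members had a median lowest XI read number of 18 and many calls near a factor of 2, so this recovery need not hold for them. Other quantities were computed in Python 3.11.15 with pandas 2.3.3.

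Members, gene lists and tests were chosen with earlier results of these data known. Ids named in the text are the 10 with the highest median, the 2 largest calls per direction and line without overlap, the 3 nearest each threshold, the 3 that varied most and least, and ids of runs of neighbouring members, of which there were none. Others are said to be chosen after seeing values or illustrate a stated count. A functional grouping could not be made. The alternatives tried are given in the closing section. DNA sequences are not reported here.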

Additional observations from a re-analysis of the deposited data

Results flagged for a closer look

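In all, 7 members were called in opposite directions against MH63 in different lines, each with 3 libraries that did not overlap those of MH63. Opposite calls were not counted over all ids, so the number is not shown to be particular to the members. The values are log2 fold changes on the log2(FPKM + 1) scale, and the differences between lines were not tested. Predicted id 25256 was higher in T1C-19 (2.54), HH1 (1.57) and XIY63 (2.20) and lower in JY63 (-1.07). Predicted id 39646 was higher in HH1 (1.2) and lower in XIY63 (-1.93) and XXY63 (-2.02). Predicted id 6703 was higher in HH1 (1.72) and lower in XIY63 (-1.34) and XXY63 (-1.13). A further 3 members were higher in HH1 and lower in 1 cross: predicted id 10524 (1.17 in HH1, -1.31 in XIY63), predicted id 26068 (1.28 in HH1, -1.12 in XXY63) and predicted id 44648 (1.19 in HH1, -1.11 in XXY63). Predicted id 26281 was higher in XIY63 (1.22) and lower in JY63 (-1.18). Several of these calls were lost in other fits. Of 13 alternative fits, 3 kept the call of predicted id 44648 in XXY63, 5 those of predicted id 26068 and predicted id 6703 in XXY63, 7 that of predicted id 10524 in XIY63, 8 those of predicted id 25256 and predicted id 26281 in JY63, and 11 those of predicted id 39646 in HH1 and XXY63 (limma, Benjamini-Hochberg adjusted p up to 0.148). The other calls held in all 13.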

How the results depend on the processing

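The number of ids that met the rule was 115 with at least 2 FPKM in every XI library, 118 with at most 0.1 FPKM in every GJ library and 103 with 0 FPKM there, against 181. Other limits, plain read totals and leaving out each line kept it within 1.5 times. The share of member loci in runs of neighbours was 0 under every definition tried. Calls of members against MH63 changed most in the crosses. Without a filter on low values 12 were called in XIY63, 8 in XXY63 and 7 in SY63, without a minimum fold change 78 in HH1, 33 in XIY63, 31 in XXY63, 26 in SY63 and 33 in JY63, and with all 39 libraries in 1 model 8 in T1C-19. Leaving out 1 library gave 3 to 4 calls in T1C-19, 37 to 47 in HH1, 9 to 17 in XIY63, 2 to 10 in XXY63, 6 to 15 in SY63 and 4 to 19 in JY63. Same-numbered replicates did not deviate together (correlations between -0.166 and 0.154), so the numbers do not pair the libraries; with the replicate block 4 members were called in T1C-19, 40 in HH1, 22 in XIY63, 8 in XXY63, 13 in SY63 and 11 in JY63. The causes were not tested. The alternatives for the lower quartile of the log2 ratio were chosen after seeing the data: with plain read totals it was -0.72 in XXY63, -0.45 in XIY63, -0.66 in SY63 and -0.62 in JY63, and without 1 MH63 library it ranged between -0.80 and -0.71 in XXY63. Short ids, few reads per id and the lack of annotation limit what these values show.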
